A study of Mus musculus with 5 samples.

Results

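Wnt ligands, the R-spondins that raise the response to them, and the inhibitors that hold them back were followed through single-cell RNA-seq of the postnatal penis and the embryonic limb. The members were 37 genes of the 32285 in the files, set by a list of symbols that uses no measured value: 19 Wnt ligands, 4 R-spondins (*Rspo1* to *Rspo4*), 10 secreted antagonists (*Sfrp1*, *Sfrp2*, *Sfrp4*, *Sfrp5*, *Frzb*, *Dkk1*, *Dkk2*, *Dkk3*, *Wif1* and *Notum*) and 4 feedback inhibitors (*Axin2*, *Nkd1*, *Nkd2* and *Apcdd1*). All 37 had at least 3 UMIs in some library, and the sparsest were *Wnt9b* and *Wnt8a*, with at most 7 and 12 UMIs in any library.

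Wnt proteins are secreted, lipid-modified signals that bind Frizzled receptors on nearby cells. In the canonical branch, Frizzled and an LRP co-receptor stabilise β-catenin, which enters the nucleus and switches on target genes, among them the inhibitors that then damp the signal. R-spondins keep Frizzled at the cell surface, while secreted Frizzled-related proteins and *Wif1* bind Wnts outside the cell. The Dickkopf proteins *Dkk1* and *Dkk2* act at LRP, and the enzyme *Notum* removes the lipid that Wnts need. In limb and external genital development Wnts from epithelium and mesenchyme steer outgrowth, patterning, cartilage and bone.

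The data comprised 3 libraries of penis from male mice 6 days after birth (P6) and 1 library each of forelimb and hindlimb from male embryos 15 days after conception, all C57BL/6N by the labels and without a mutation or treatment. The penis libraries held the glans, with the prepuce removed, of mice from 2 litters, and the limbs were dissected from 6 embryos. Which mouse or embryos gave each library is not stated, so p-values between the tissues measure the spread between libraries. With the library as a block, p-values measure how far differences within libraries vary. Both draw on a spread estimated over many genes, since the libraries are few. Tissue cannot be told apart from age or from the time of preparation. Forelimb and hindlimb were taken as limb (n = 2). Neither limb had a replicate, so the spread within limb includes any difference between forelimb and hindlimb.

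After filtering, between 5708 and 22057 cells and between 51529854 and 148752710 UMIs were left per library, with median depths from 5358 to 9909 UMIs per cell. Pairs of libraries shared between 20 and 203 barcodes. The limb genes followed the labels, with *Tbx5*, a forelimb gene, at 55.5 CPM in forelimb against 3.09 in hindlimb cells, and *Pitx1*, a hindlimb gene, at 1.03 against 68.6 (CPM, a gene's UMIs scaled to the same total of UMIs in every library or sum). Cells were grouped by how many of a type's marker genes they held, none of them a member, and the groups rest on markers alone: mesenchyme-like, epithelium-like, endothelium-like, mural-like, glia-like, cartilage-like, bone-forming-like, tendon-like, macrophage-like and, in limb only, skeletal muscle-like cells, for short mesenchyme, epithelium and so on. Mesenchyme was 62.1 to 63.7% of cells in the penis libraries and 50.4 and 50.6% in the limbs. UMIs were summed per library and type, and levels are CPM of that sum. A difference in such a sum cannot be split into fewer expressing cells and less RNA per cell. A call needed an adjusted p below 0.01 in edgeR's quasi-likelihood test and a log2 fold change beyond 1. Where called members are said not to overlap between groups, this adds no support to the call. The share of all genes without overlap is not given.

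Promoter sequence is shown as a description for 3 members that were called between the tissues in some cell type, and no result rests on it. The feedback gene *Axin2* is a direct target of β-catenin and its TCF partners, whose usual core is CTTTGA, or TCAAAG on the other strand. The first 250 bases before its RefSeq start (GRCm38.p6, chr11:108920099-108920348, plus strand) held neither, and nor did those of *Wnt6* (chr1:74771642-74771891, plus strand), which differed between the tissues in mesenchyme and glia as given further on. *Dkk1*, whose mesenchymal level fell the most but for *Sfrp5*, held the core in both orientations, 117 and 174 bases before its RefSeq start. The annotation used for gene positions starts *Dkk1* further out, at base 30549665 of chromosome 19, so by it the first stretch lies inside the gene and the next spans its start; the pair of 30-base stretches is on the minus strand of chromosome 19, at chr19:30549596-30549625 and chr19:30549653-30549682, with the core in capitals.
Axin2: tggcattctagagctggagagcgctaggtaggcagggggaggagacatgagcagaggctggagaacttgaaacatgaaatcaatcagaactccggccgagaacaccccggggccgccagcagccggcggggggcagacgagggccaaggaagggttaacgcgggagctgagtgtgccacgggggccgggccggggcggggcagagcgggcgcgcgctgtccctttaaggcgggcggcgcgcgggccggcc
Wnt6: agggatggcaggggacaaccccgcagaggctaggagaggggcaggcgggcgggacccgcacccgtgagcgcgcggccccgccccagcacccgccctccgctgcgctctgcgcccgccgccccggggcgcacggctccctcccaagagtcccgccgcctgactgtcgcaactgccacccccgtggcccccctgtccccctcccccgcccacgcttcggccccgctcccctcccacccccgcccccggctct
Dkk1, first stretch: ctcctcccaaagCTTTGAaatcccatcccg
Dkk1, next stretch: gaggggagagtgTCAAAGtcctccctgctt
RefSeq gave windows of this length for 26 members (29 windows), and 4 of these 29 (13.8%) held the core, against 4544 of 32851 windows of all genes (13.8%). Some of the members lay in 4 close pairs: *Wnt6* and *Wnt10a* on chromosome 1, 6.19 kb apart and both on the plus strand, *Wnt3a* and *Wnt9a* on chromosome 11, 16.18 kb apart, *Wnt9b* and *Wnt3* on chromosome 11, 24.33 kb apart, and *Wnt10b* and *Wnt1* on chromosome 15, 11.71 kb apart.

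Ligands were divided between epithelium and mesenchyme in both tissues. *Wnt3*, *Wnt4*, *Wnt6*, *Wnt7b*, *Wnt10a* and *Wnt10b* were higher in epithelium than in mesenchyme of penis and of limb, and *Wnt2*, *Wnt5a*, *Wnt9a*, *Wnt11*, *Rspo1*, *Rspo2* and *Rspo3* were lower in epithelium of both, each by its own call. In both tissues *Wnt3*, *Wnt7b*, *Wnt10a* and *Wnt10b* lay under the filter on low counts in mesenchyme, so their calls are no independent sign of a difference. The same held for *Wnt2*, *Wnt11*, *Rspo1* and *Rspo2*, at least in limb epithelium. *Wnt3*, a canonical ligand needed for the limb's apical ridge, was at 50.4, 44.7 and 61.0 CPM in penis epithelium and 61.9 and 65.8 in forelimb and hindlimb epithelium, against 0.130 to 0.255 CPM in the 5 mesenchyme sums. *Wnt5a*, a ligand of mostly β-catenin-independent signalling that drives outgrowth of limb and genital tubercle, was at 193, 197 and 199 CPM in penis mesenchyme and 140.2 and 128 in limb mesenchyme, against 13.7 to 23.5 CPM in epithelium.

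**Figure D1:**
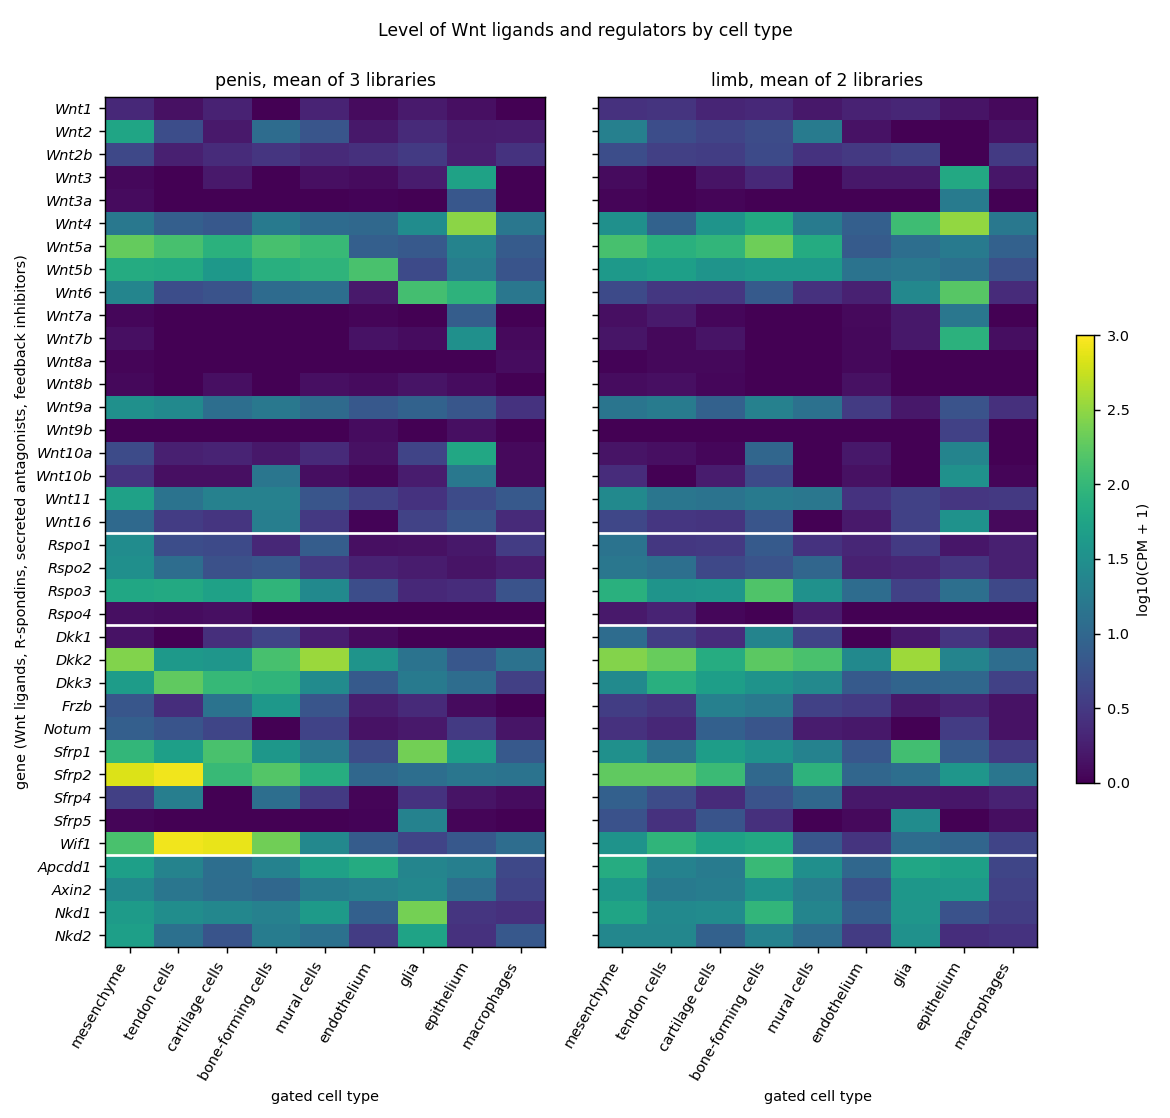
Mean level of each of the 37 genes (rows, grouped by role) in each gated cell type (columns), as log10(CPM + 1), over 3 penis libraries (left) and 2 limb libraries (right). *Wnt3*, *Wnt4*, *Wnt6*, *Wnt7b*, *Wnt10a* and *Wnt10b* are brighter in the epithelium column than in mesenchyme in both panels. *Wnt2*, *Wnt5a* and *Sfrp2* are brighter in mesenchyme than in epithelium in both. Colours are best compared along a row.

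Each type was tested against mesenchyme of the same tissue, with the library as a block. In penis, 27 members were tested. In epithelium 6 rose and 17 fell, where 33.8% of all genes tested were called, 13.8% higher and 20% lower. Those that rose, 4 of them at levels in mesenchyme under the filter on low counts (7.61 CPM in this table), were *Wnt3* (log2 fold change 8.36), *Wnt7b* (6.72), *Wnt4* (4.63), *Wnt10a* (4.31), *Wnt10b* (3.36) and *Wnt6* (2.21). In glia 5 rose and 15 fell (27.9% of all genes were called, 11.5% higher and 16.4% lower). In endothelium *Wnt5b* rose by 1.07 ± 0.10, which fell to 0.90 and below the limit without penis library 3, and 20 members fell (31.2% of all genes were called, 13.6% higher and 17.6% lower). No member rose in mural cells, where 10 fell (12.8% of all genes were called, 6.61% higher and 6.24% lower), or in macrophages, where 20 fell (45.6%, 21.3% higher and 24.3% lower). By edgeR, 5535 and 10139 genes in all were at an unadjusted p under 0.05 in these types. In cartilage cells 2 rose and 13 fell (11.2% of all genes were called, 4.72% higher and 6.47% lower), in bone-forming cells 2 rose and 10 fell (4.69%, 2.5% and 2.19%), and in tendon cells 3 rose and 8 fell (9.18%, 3.59% and 5.59%). Calls kept under every alternative numbered 22 of 23 in epithelium, 16 of 20 in glia, 20 of 21 in endothelium, 9 of 10 in mural cells, 18 of 20 in macrophages, 10 of 15 in cartilage cells, 5 of 12 in bone-forming cells and 9 of 11 in tendon cells. A member whose lower side lay under the filter in every sum was tested only because another sum held more of it, so its call is no independent sign of a difference, and these made up 14 of the 23 calls in epithelium, 14 of 21 in endothelium, 11 of 20 in glia and 13 of 20 in macrophages.

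Antagonists were among the members that rose in the skeletal and tendon groups of the penis. *Wif1*, which binds Wnts outside the cell, rose by a log2 fold change of 2.82 ± 0.16 (SE) in tendon cells and 2.55 ± 0.17 in cartilage cells over penis mesenchyme. *Dkk3*, a divergent Dickkopf, rose by 2.19 ± 0.12 and 1.17 ± 0.15 in the same types, and *Sfrp4* by 2.90 ± 0.36 in tendon cells. *Frzb*, a Frizzled-related antagonist known from cartilage, rose by 2.88 ± 0.34 in the bone-forming group together with *Wnt10b* (3.05 ± 0.46), a ligand that favours bone formation; the latter was not called without penis library 2 (2.37). Levels of *Wif1* in penis tendon cells were 769.9, 949 and 846 CPM, against 151, 130.3 and 124 in penis mesenchyme, with no overlap. *Sfrp4*, *Frzb* and *Wnt10b* lay under the filter in mesenchyme.

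In limb, 32 members were tested. In epithelium 9 rose and 18 fell, where 24.2% of all genes were called, 9.82% higher and 14.3% lower. The 9 were *Wnt6* (log2 fold change 5.67), *Wnt4* (3.52) and *Wnt16* (3.35), and 6 that lay under the filter (3.46 CPM in this table) in mesenchyme and are given as ratios with 95% counting intervals. *Wnt3* was 277 times higher in epithelium (190 to 415), *Wnt3a*, on 34 and 13 UMIs in epithelium and mesenchyme, 192 times (99.0 to 397), and *Wnt7b* 172 times (130 to 229). *Wnt10a* was 47.6 times higher (31.8 to 70.6), *Wnt7a* 45.03 times (27.6 to 72.4) and *Wnt10b* 22.9 times (17.1 to 30.3). *Wnt7a*, the dorsalising ligand of limb ectoderm, was thinly read at 13 and 17 UMIs in the limb epithelium sums. In glia 4 rose and 12 fell (15.5% of all genes were called, 6.49% higher and 9.01% lower), in cartilage 2 rose and 11 fell (13%, 4.33% and 8.65%), and in tendon cells 2 rose and 9 fell (3.93%, 1.74% and 2.18%). The cartilage pair was *Frzb* (2.83 ± 0.21) and *Notum* (2.08 ± 0.23), both under the filter in mesenchyme, and the tendon pair *Dkk3* (1.55 ± 0.13) and *Wif1* (1.44 ± 0.14). No member rose in the other types. In endothelium 22 fell (25.7% of all genes were called, 10.5% higher and 15.2% lower), in mural cells 8 (3.06%, 2% and 1.07%), in macrophages 23 (43.1%, 17.7% and 25.3%), in skeletal muscle 25 (34.7%, 10% and 24.7%) and in the bone-forming group 1, *Sfrp2* (1.81%, 1.01% and 0.804%), not called without the library in the model. Calls kept under every alternative numbered 20 of 27 in epithelium, 12 of 16 in glia, 10 of 13 in cartilage cells, 7 of 11 in tendon cells, 21 of 22 in endothelium, 1 of 8 in mural cells, 22 of 23 in macrophages and 23 of 25 in skeletal muscle, and 14, 6, 4, 2, 11, 1, 17 and 17 of the calls in these types had their lower side under the filter. By edgeR, 9023, 3205, 11615, 11505 and 2689 genes in all were at an unadjusted p under 0.05 in these 5 types. Unlike those in penis, the limb calls had no alternative with a library left out.

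Penis and limb mesenchyme differed in both ligands and inhibitors. *Wnt10a* and *Wnt6*, neighbours on chromosome 1, were higher in penis, as were *Sfrp1*, *Sfrp2*, *Wif1* and *Notum*, while *Dkk1* and *Sfrp5* had at most 20 UMIs a library in penis and at least 324 in limb. Of 35 members tested 12 rose in penis and 4 fell, where 25.3% of all genes were called, 12.5% higher and 12.8% lower. The median log2 fold change was 0.52 over members and 0.0047 over all genes.

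Among ligands, *Wnt10a* was at 4.66, 3.54 and 3.33 CPM in penis and 0.576 and 0.324 in forelimb and hindlimb mesenchyme, a log2 fold change of 3.08 ± 0.26 (edgeR adjusted p = 9.53e-06). *Wnt6* was at 24.5, 21.5 and 21.5 CPM against 5.01 and 2.31 (2.60 ± 0.25, edgeR adjusted p = 2.3e-05), which was 3.28 without the forelimb. Every penis library stood above both limb libraries for both genes. *Wnt2*, a canonical ligand of mesenchymal tissues, was at 58.7, 57.2 and 55.4 CPM in penis and 21.4 and 17.3 in limb (1.54 ± 0.10), *Wnt16* rose by 1.47 ± 0.10 and *Wnt9a*, known from joints, by 1.16 ± 0.07. *Wnt4*, also known from joints, fell by 1.06 on the log2 scale, from 27.2 and 34.4 CPM in limb to 15.7, 14.9 and 14.2 in penis, and was short of the limit without the hindlimb (-0.90). *Wnt5a* was higher in each penis library than in the limbs, but its log2 fold change of 0.52 ± 0.06 was short of the limit, as were those of *Wnt5b* (0.75) and *Wnt11* (0.98).

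Of the R-spondins, *Rspo2*, which limb outgrowth requires, was at 31.1, 27.5 and 32.2 CPM in penis and 13.2 and 15.5 in limb mesenchyme (1.05 ± 0.08, edgeR adjusted p = 6.67e-06). *Rspo1* was at 30.0, 26.2 and 26.0 CPM against 17.4 and 8.29 (1.07 ± 0.25, edgeR adjusted p = 0.00467). *Rspo1* lost its call when any single penis library or the hindlimb was left out, at log2 fold changes of 1.00, 1.09, 1.12 and 0.62, and was called at 1.72 without the forelimb. *Rspo2* did so without the forelimb (0.95). *Rspo3*, a vascular and mesenchymal R-spondin, stood at 59.6 to 62.0 CPM in penis and 70.7 and 88.8 in limb and was not called.

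Secreted antagonists were called in both directions. *Sfrp2* was at 713, 679.9 and 682 CPM in penis mesenchyme, but at 90.7 CPM in forelimb and 273 in hindlimb mesenchyme, a log2 fold change of 1.91 ± 0.36 (edgeR adjusted p = 0.00137). It was 2.89 without the hindlimb and 1.33 without the forelimb, so its size depended on which limb was left out. *Sfrp1* was steadier, at 101, 94.9 and 94.99 CPM against 33.7 and 29.2 (1.60 ± 0.08, edgeR adjusted p = 4.19e-07). *Wif1* was at 151, 130.3 and 124 CPM against 41.7 and 25.3 (1.99 ± 0.20), *Notum* at 8.69, 5.92 and 6.39 CPM against 1.71 and 1.66 (2.03 ± 0.18), and *Frzb* rose by 1.07 ± 0.12, a call that was lost without the hindlimb (0.96).

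*Dkk1*, a potent LRP inhibitor that shapes the limb's digits, was at 0.420, 0.367 and 0.459 CPM in penis mesenchyme (20, 17 and 16 UMIs) and 11.6 and 9.51 in limb (866 and 733 UMIs), and fell by 4.69 on the log2 scale (SE 0.16, edgeR adjusted p = 5.37e-08). *Sfrp5* had 3, 4 and 4 UMIs in the penis mesenchyme sums and 324 and 396 in the limbs, and was 55.6 times higher in limb (95% counting interval 30.9 to 112). It passed the filter on low counts through the limb sums alone, so this ratio is a description, with a fitted log2 value of -5.78, or -4.68 with all barcodes and -6.71 with 1 more marker. Neither of these called genes, *Dkk1* and *Sfrp5*, overlapped between tissues. *Sfrp4* fell by 1.44 (SE 0.22), and *Dkk2*, another Dickkopf, was at 253, 272 and 280.0 CPM in penis and 258 and 296 in limb, overlapping, with a log2 fold change of -0.07 ± 0.07 (edgeR adjusted p = 0.411). The feedback genes had log2 fold changes of -0.63 (*Axin2*), -0.56 (*Apcdd1*), -0.39 (*Nkd1*) and 0.99 (*Nkd2*), none of them called.

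**Figure D2:**
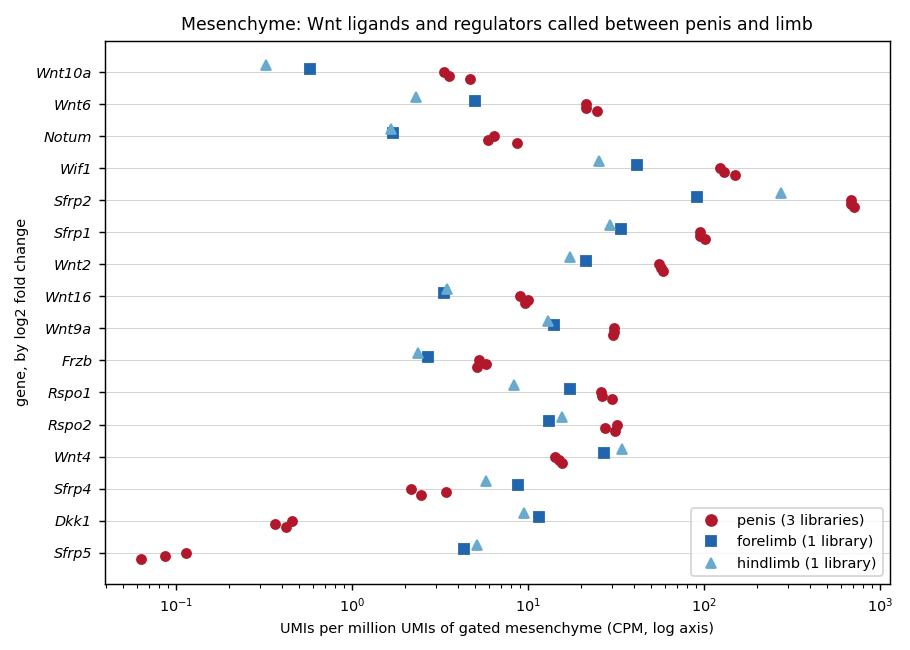
CPM of the 16 called genes in gated mesenchyme (log axis), 1 point a library: 3 penis libraries (circles), forelimb (square) and hindlimb (triangle), ordered by log2 fold change. Penis points lie right of both limb points for the upper 12 genes and left of them for *Wnt4*, *Sfrp4*, *Dkk1* and *Sfrp5*; *Sfrp2* and *Rspo1* show wide gaps between the limbs.

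Receptors and the other pathway genes were described by a list of 54, all of them tested in mesenchyme. Of these 9 rose and 8 fell, where 12.5% of all genes were called higher and 12.8% lower, with a median of -0.09. Those that rose included the Frizzled receptors *Fzd9* (2.21), *Fzd1* (1.45) and *Fzd6* (1.00), the co-receptor *Lrp5* (1.31), the R-spondin receptor *Lgr5* (1.63), *Porcn*, which adds the lipid to Wnts (1.54), and the inhibitors *Sost* (2.15) and *Serpinf1* (2.72). The target *Sp5* fell by 3.70, the receptor *Fzd4* by 1.98 and the transcription factor *Lef1* by 1.46.

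In epithelium most called members were lower in penis, though *Wnt10a* and *Sfrp1* rose as they did in mesenchyme. Of 20 members tested 2 rose and 9 fell (12.1% of all genes were called, 5.57% higher and 6.5% lower), with a median log2 fold change of -0.95 over members and 0.0081 over all genes. The feedback gene *Axin2*, often read as a measure of canonical signalling, was at 12.02, 7.93 and 13.2 CPM in penis and 41.3 and 38.4 in forelimb and hindlimb epithelium, and fell by 1.80 (SE 0.25, edgeR adjusted p = 2.59e-05). *Apcdd1*, a membrane inhibitor of hair follicles, fell by 1.35 (SE 0.22), a call lost without the cells above the 95th percentile of UMIs (-0.97).

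Of the epithelial ligands, *Wnt7b* was at 31.7, 27.6 and 32.9 CPM in penis and 87.7 and 80.4 in limb, and fell by 1.39 (SE 0.16, edgeR adjusted p = 3.73e-06). *Wnt16* was at 4.34, 5.08 and 6.14 CPM against 40.2 and 25.6, and fell by 2.59 (SE 0.31), while it rose in mesenchyme. *Wnt3a* fell by 1.47 and *Wnt10b* by 1.02, on 10 to 22 and 29 to 48 UMIs a library, and both calls were lost under several alternatives, *Wnt10b* among them when the forelimb was left out (-0.74) and *Wnt3a* likewise (-0.98). *Wnt10a* rose, as it did in mesenchyme: 63.1, 59.6 and 64.9 CPM in penis against 24.8 and 18.3 in limb (1.61 ± 0.20, edgeR adjusted p = 8.69e-06). *Wnt4* was at 317, 289 and 301 CPM against 367 and 292 (-0.06 ± 0.13, edgeR adjusted p = 0.792), with overlap. *Wnt3* was not called either (-0.25 ± 0.17), and *Wnt6* was at 89.1, 79.6 and 87.7 CPM against 178 and 153, a log2 fold change of -0.88 that was not called.

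*Sfrp1* was the other gene to rise in epithelium, at 44.1, 47.9 and 51.8 CPM in penis against 5.16 and 7.31 in limb. The forelimb and hindlimb levels rested on 5 and 8 UMIs. Its log2 fold change was 2.98 ± 0.29 (edgeR adjusted p = 3.65e-07), or 4.04 without the cells above the 95th percentile of UMIs. *Rspo3* fell by 2.91, *Dkk2* by 1.84 and *Sfrp2* by 1.29, all mesenchymal genes in these data. The summed level of the 8 mesenchyme markers was 112 to 138 CPM in penis epithelium and 186 and 208 in limb epithelium, with no marker at 0, against 2880 to 2958 CPM in mesenchyme; its part in these 3 falls was not tested. *Dkk2* lost its call without the hindlimb (-1.61), and *Sfrp2* without penis library 1, penis library 3 or the hindlimb (-1.14, -1.17 and -0.995).

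Splitting the epithelium by *Krt1*, *Krt10* and *Krtdap*, genes of the layers above the basal one, placed *Wnt10a* differently in the tissues. In basal cells it was at 70.9, 65.4 and 72.1 CPM in penis and 38.7 and 34.9 in limb, and in suprabasal cells at 56.4, 54.6 and 58.6 in penis but 11.9 and 1.82 in limb, the last on 6 and 1 UMIs. The penis layers were near each other and the limb layers apart, a contrast that was not tested. *Wnt4* was spread over both layers, at 292 to 410.4 CPM in basal and 261 to 328 in suprabasal cells over the 5 libraries.

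**Figure D3:**
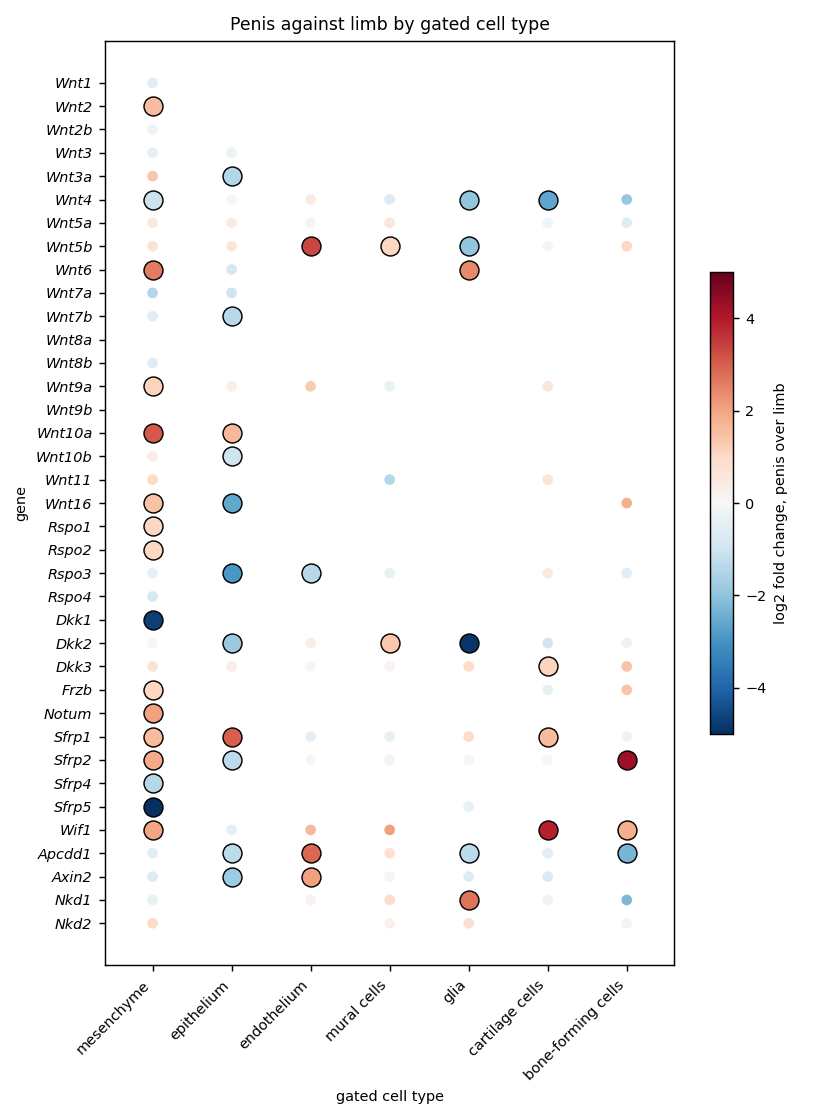
Log2 fold change of penis over limb for each gene (rows) in 7 gated types (columns); large outlined circles were called (edgeR adjusted p below 0.01 and beyond 1), small ones were tested only, and gaps were not tested. Colour saturates at 5, so *Sfrp5* in mesenchyme (-5.78) is drawn at the end of the scale; *Wnt16*, *Sfrp2*, *Dkk2*, *Apcdd1*, *Axin2* and *Wnt5b* show both colours among called types.

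Endothelium of the penis had more *Wnt5b* and more of the feedback genes *Apcdd1* and *Axin2*. Of 13 members tested 3 rose and 1 fell (13.8% of all genes were called, 7.48% higher and 6.3% lower), with medians of 0.38 over members and 0.012 over all genes. *Wnt5b*, a close relative of *Wnt5a*, was at 132, 115 and 158 CPM in penis and 14.3 and 11.5 in forelimb and hindlimb endothelium (3.34 ± 0.17, edgeR adjusted p = 1.83e-12). *Apcdd1*, which also has a role in the vessels of the central nervous system, was at 74.4, 64.8 and 69.7 CPM against 7.79 and 10.4 (2.87 ± 0.17, edgeR adjusted p = 2.91e-11). *Axin2* was at 19.8, 16.0 and 23.0 CPM against 3.28 and 5.55 (2.06 ± 0.28, edgeR adjusted p = 4.43e-06). The groups did not overlap for any of these 3 called genes. *Rspo3* fell by 1.39 (SE 0.33), a call lost without the hindlimb (-1.12) and without the cells above the 95th percentile of UMIs (-0.66). Mesenchyme markers summed to 75.1 to 106 CPM in penis and 127 and 129 in limb endothelium, and their part in this fall was not tested.

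*Wnt5b* was found in 48.4, 45.3 and 52.9% of penis endothelial cells and in 8.98 and 9.64% of those of forelimb and hindlimb. The cells differed in depth, with medians of 8841 to 9336 UMIs in penis and 5231 and 6822 in limb. After thinning to 2000 UMIs a cell the shares were 20.02, 17.7 and 24.0% against 2.88 and 1.86%. In macrophages, assumed to lack the gene, the thinned shares were 0.524 to 1.61%, at median depths of 5966 to 7973 UMIs. Endothelium of both tissues lay above that range, the penis by far more, and the assumption itself was not tested. The limb macrophages alone were at 0.620 and 0.870%. Among the other pathway genes, *Lef1* rose by 2.48 in penis endothelium and *Wls*, the carrier that brings Wnts to the surface, by 2.12; 7 of 46 tested rose and 1 fell, where 7.48% of all genes were called higher and 6.3% lower.

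**Figure D4:**
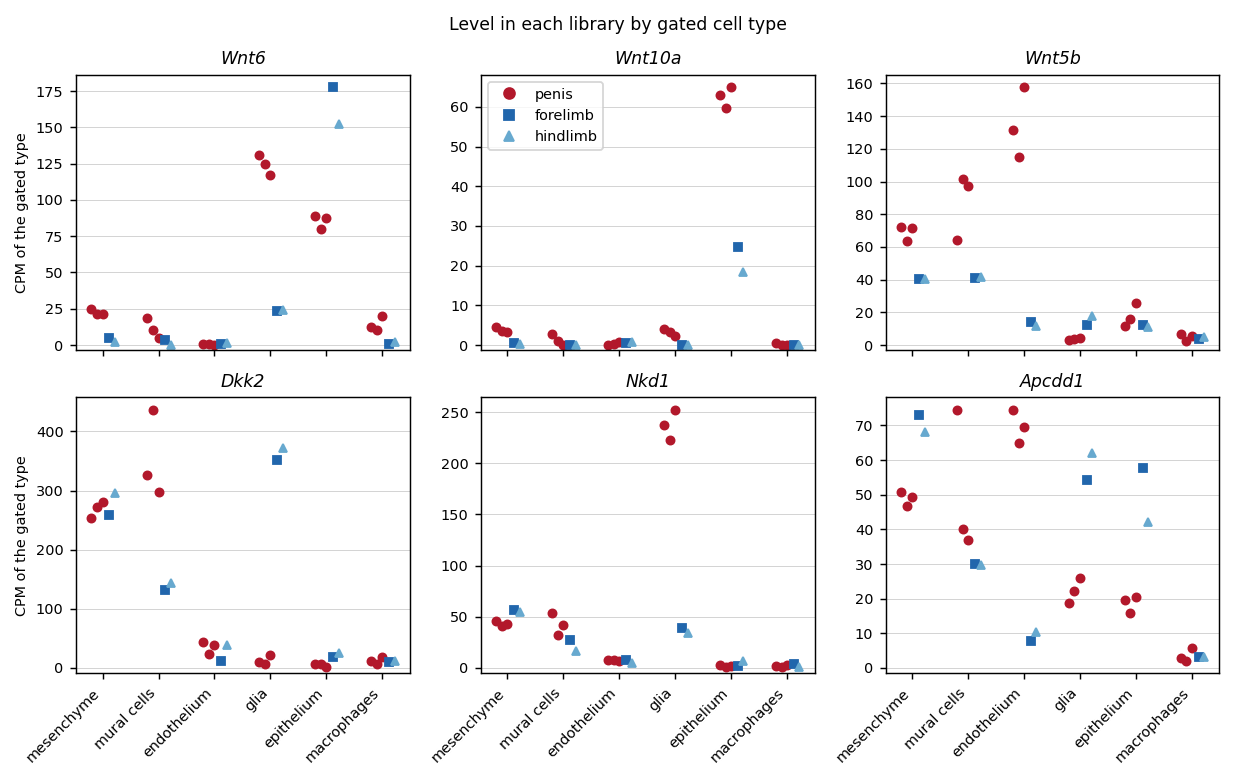
CPM of 6 genes in 6 gated types (linear axes), 1 point a library: penis (3 circles), forelimb (square) and hindlimb (triangle). *Wnt5b* and *Apcdd1* separate the tissues in endothelium, *Nkd1*, *Wnt6* and *Dkk2* in glia, and *Wnt10a* in epithelium.

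In glia-like cells *Sfrp5*, *Wnt6*, *Sfrp1* and *Wnt4* were called higher than in mesenchyme of both tissues, and *Nkd1*, which limb glia held too, was called higher in penis. Over mesenchyme of the same tissue, *Wnt6* rose by 2.58 ± 0.10, *Nkd1* by 2.57 ± 0.08, *Sfrp1* by 1.35 ± 0.09 and *Wnt4* by 1.03 ± 0.14 in penis, where *Sfrp5* had 100 UMIs in glia and 11 in mesenchyme, 238 times higher per UMI of the sums (95% counting interval 127 to 492), and *Wnt6* by 2.70 ± 0.43, *Sfrp5* by 2.49 ± 0.34, *Sfrp1* by 1.91 ± 0.18 and *Wnt4* by 1.85 ± 0.18 in limb. *Sfrp5* was at 18.1, 23.2 and 19.0 CPM in penis glia and 27.7 CPM in each limb, against 0.063 to 0.115 CPM in penis mesenchyme and 4.34 and 5.14 CPM in limb mesenchyme. Its level in penis mesenchyme lay under the filter on low counts, so its penis call is no independent sign of a difference. The penis call of *Wnt4* was lost under 7 alternatives, among them without penis library 1 (0.87) or 2 (0.97), at values from 0.87 to 0.98.

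Between tissues, 12 members were tested in glia, and 2 rose in penis and 4 fell (16.3% of all genes were called, 8.76% higher and 7.54% lower), with medians of -0.20 over members and 0.0056 over all genes. *Nkd1*, an inhibitor that binds Dishevelled, was at 237, 223 and 252 CPM in penis glia and 38.8 and 34.4 in limb glia (2.72 ± 0.15, edgeR adjusted p = 5.41e-12). *Wnt6* was at 131, 125 and 117 CPM against 23.2 and 24.4 (2.42 ± 0.18, edgeR adjusted p = 7.66e-10). *Dkk2* was at 9.92, 6.86 and 22.1 CPM in penis glia and 351 and 372 in limb glia, and fell by 4.86 (SE 0.20, edgeR adjusted p = 2.79e-14). *Wnt4* fell by 1.98 (SE 0.17), from 115 CPM in each limb to 33.9, 28.0 and 22.1. None of these 4 called genes overlapped between tissues. *Wnt5b* fell by 1.97 on 5 to 16 UMIs a library and lost its call without the hindlimb (-1.68), and *Apcdd1* fell by 1.37.

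*Nkd1* was found in 70.8, 67.4 and 70.3% of penis glia and 20 and 20.4% of limb glia, at median depths of 8131 to 9912 and of 5939 and 6724 UMIs. Thinned to 2000 UMIs the shares were 33.3, 29.5 and 34.4% against 8.22 and 6.80%, and 0.0813 to 0.736% in macrophages. Mesenchyme markers summed to 132 to 182 CPM in penis glia and 198 and 279 in limb glia, and their part in the differences between penis and limb glia was not tested. Of the other pathway genes *Sostdc1* (2.71) and *Lgr5* (1.69) rose in penis glia and 9 of 44 tested fell, where 8.76% of all genes were called higher and 7.54% lower.

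Mural cells, cartilage cells and bone-forming cells each gave 2 to 4 called members. In mural cells 2 of 15 members tested rose and none fell by edgeR (11.3% of all genes were called, 6.44% higher and 4.91% lower; 3860 were at an unadjusted p under 0.05, and DESeq2 called 1 member): *Dkk2*, at 325, 436 and 298 CPM in penis and 132 and 144 in limb (1.36 ± 0.19, edgeR adjusted p = 0.000148), and *Wnt5b* (1.08 ± 0.24). The size of the *Dkk2* difference depended on the cells taken, at 2.35 with 1 more marker and 2.69 without the cells above the 95th percentile of UMIs, and *Wnt5b* was at 1.78 without those cells. *Wnt5b* lost its call without any of penis library 2, penis library 3, the forelimb and the hindlimb (0.94, 1.03, 1.08 and 1.07). Mesenchyme markers summed to 1227 to 1435 CPM in penis and 1694 and 1606 CPM in limb mural cells, and their part in these differences was not tested. In the cartilage group 3 of 15 rose and 1 fell (16.2% of all genes were called, 9.35% higher and 6.86% lower). *Wif1* was at 730, 782 and 842 CPM in penis and 72.4 and 33.5 in limb (3.90 ± 0.27, edgeR adjusted p = 2.29e-07), or 4.55 without the forelimb. *Sfrp1* rose by 1.57 and *Dkk3* by 1.11, the last not called without penis library 3 (0.99) or the hindlimb (0.97), and *Wnt4* fell by 2.65. The penis cartilage group held only 44 to 76 cells a library with *Col2a1* at 253 to 401 CPM, against 5522 and 6194 CPM in limb, so the groups are unlike in their defining collagen. Mesenchyme markers summed to 1558 to 1734 CPM in it and 1348 and 1392 in limb cartilage cells.

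In the bone-forming group, of 32 to 48 cells a library, 2 of 14 rose and 1 fell (5.46% of all genes were called, 3.39% higher and 2.07% lower). Mesenchyme markers summed to 2572 to 3190 CPM in the penis and 2788 and 3516 CPM in the limb sums of this group, with none at 0, overlapping the range of mesenchyme itself, and their part in its values was not tested. *Sfrp2* was at 221, 156 and 90.8 CPM in penis and 2.44 and 15.9 in limb, on 1 and 5 UMIs in the limbs (4.27 ± 0.59, edgeR adjusted p = 0.000663). It was 5.90 without the hindlimb and 3.35 without the forelimb. *Wif1* rose by 1.82 but not without penis library 1, penis library 3 or the hindlimb (1.65, 1.92 and 1.21) and was 3.01 without the forelimb, and *Apcdd1* fell by 2.33 but was not called without penis library 1, penis library 3 or the forelimb (-2.02, -2.35 and -1.40). Without the cells above the 95th percentile of UMIs they were at 2.68 and -0.48. Of the calls between the tissues within types, those of *Sfrp5* in mesenchyme, *Rspo3* in epithelium, *Wnt5b* in glia, *Wnt4* in cartilage cells and *Sfrp2* in bone-forming cells had the lower tissue under the filter.

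Whether a cell type's distance from mesenchyme differed between the tissues was tested as an interaction in 1 fit of both, over 31 members. Sides that lay under the filter on low counts were not counted for this test. In epithelium 1 member was called higher in penis and 7 lower (9.68% of all genes were called, 4.39% higher and 5.29% lower), in endothelium 5 and 2 (9.36%, 5.11% and 4.25%), in mural cells 3 and 4 (3.34%, 1.94% and 1.4%), of which 6 were not called without the forelimb, and in glia 2 and 3 (10.5%, 5.51% and 5.01%). *Wnt6* stood above mesenchyme by far more in limb epithelium than in penis epithelium, a difference of -3.53 ± 0.22 on the log2 scale (edgeR adjusted p = 1.1e-15), with a higher level in penis mesenchyme and an epithelial difference between the tissues that was not called on its own. In endothelium *Apcdd1* differed by 3.44 ± 0.27 and *Wnt5b* by 2.61 ± 0.24, and in glia *Dkk2* differed by -4.78 ± 0.36 and *Nkd1* by 3.14 ± 0.24.

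Over whole libraries, 15 of 35 members rose in penis and 2 fell (24.5% of all genes were called, 13% higher and 11.5% lower). *Wnt3* rose by 1.76 there (2.90 with all barcodes) but was not called within epithelium, and epithelium was 3.75 to 4.39% of penis cells against 0.589 and 0.780% of limb cells.

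Mesenchyme of the penis was not uniform, and its marker groups differed in some ligands and inhibitors. The groups were cut by marker UMIs that hold no member and may overlap: *Pi16*, *Clec3b* and *Dpp4* (363 to 496 cells a library), *Sox9* with *Sox5* or *Sox6* (667 to 867), *Srd5a2* with *Sim1* (504 to 711), and *Angpt2* or *Ccl19* (1447 to 1811). Each was tested against the other mesenchyme cells of the same libraries, so the comparisons share cells. In the *Pi16* group 4 of 27 members tested rose and 11 fell (9.68% of all genes were called, 4.27% higher and 5.41% lower). *Wnt2* was at 271, 266 and 263 CPM in it and 25.9, 26.4 and 27.1 in the other mesenchyme (3.49 ± 0.04, edgeR adjusted p = 1.2e-18). *Wnt10b* rose by 4.18 ± 0.25, from 0.521 to 0.645 CPM to 9.08 to 10.6, and *Wnt9a* by 1.24 ± 0.07. *Sfrp4* rose by 1.06, but not without penis library 1 (0.79). The *Pi16* group had little *Wif1* (9.74, 9.09 and 4.54 CPM against 173, 148 and 139.9, a log2 fold change of -4.09 ± 0.09). *Notum*, *Wnt10a*, *Nkd2*, *Wnt6*, *Dkk2*, *Sfrp1*, *Frzb*, *Rspo2*, *Rspo3* and *Apcdd1* fell by 1.20 to 3.72. Of these *Wnt10a*, at 0.157 to 0.505 CPM in the *Pi16* group, lay under the filter on low counts there, so its call is no independent sign of a difference. *Notum* was thinly read in that group too, at 4, 4 and 1 UMIs, as was *Frzb* at 5, 11 and 11.

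The *Sox9* group was the reverse for *Wif1* and *Wnt2*. *Wif1* was at 383, 318 and 326 CPM in it against 88.0, 81.7 and 74.0 (2.02 ± 0.04, edgeR adjusted p = 1.94e-20), the single member of 27 to rise, and *Wnt2* was at 5.41, 5.67 and 3.20 CPM against 73.1, 70.5 and 68.2 (-3.90 ± 0.09). In all 9 fell (5.99% of all genes were called, 2.4% higher and 3.59% lower), among them *Rspo1* by 1.93, *Nkd2* by 1.77, *Apcdd1* by 1.52 and *Sfrp2* by 1.31.

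In the *Srd5a2* group, named for the enzyme that makes dihydrotestosterone, all 4 feedback genes rose. *Nkd2* was at 138, 129.9 and 153 CPM in it and 32.2, 28.4 and 31.8 in the other mesenchyme (2.19 ± 0.05, edgeR adjusted p = 4.11e-22). *Apcdd1* was at 96.3, 91.6 and 107 CPM against 41.7, 37.8 and 39.3 (1.31 ± 0.05), *Axin2* at 46.5, 55.2 and 47.9 CPM against 19.8, 20.9 and 22.3 (1.26 ± 0.07), and *Nkd1* rose by 1.01 ± 0.05, just past the limit (not called without penis library 1 or 3). No library overlapped for any of these 4 called genes. In all, 7 of 30 members tested rose and 2 fell (5.48% of all genes were called, 1.87% higher and 3.6% lower), with medians of 0.56 over members and 0.0020 over all genes. The ligand *Wnt10a* rose by 1.26 ± 0.20 and *Notum* by 1.07 ± 0.14, the latter not without penis library 2 (0.85). *Dkk1* rose by 1.89 on 6 to 8 UMIs a library and lost its call without penis library 1 or 3 (1.97 and 1.60). In the other mesenchyme *Dkk1* lay under the filter on low counts, so its call is no independent sign of a difference. *Wnt2* fell by 1.40 and *Wnt10b* by 1.45, the latter not called without penis library 1 (-1.03).

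In the *Angpt2* or *Ccl19* group *Wnt6* was at 42.4, 37.4 and 38.0 CPM against 10.2, 9.42 and 9.02 in the other mesenchyme (1.96 ± 0.06, edgeR adjusted p = 4.28e-12), and *Rspo2* rose by 1.04 ± 0.06, short of the limit without penis library 2 (0.95). These were the 2 of 27 members to rise, and 12 fell (10.8% of all genes were called, 5.72% higher and 5.06% lower), led by *Notum* (-3.81), *Wnt10a* (-3.40), *Wif1* (-3.31) and *Wnt2* (-3.14). *Wnt6* and *Wnt10a*, both higher in penis than in limb mesenchyme, were called in opposite directions in this group: *Wnt10a* was at 0.659, 0.652 and 0.599 CPM in this group and 7.89, 5.73 and 5.39 in the other mesenchyme. In the *Srd5a2* group both stood higher than in the other mesenchyme, *Wnt6* at 30.6, 30.7 and 31.1 CPM against 23.3, 19.6 and 19.9 (0.56 ± 0.08, not called).

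**Figure D5:**
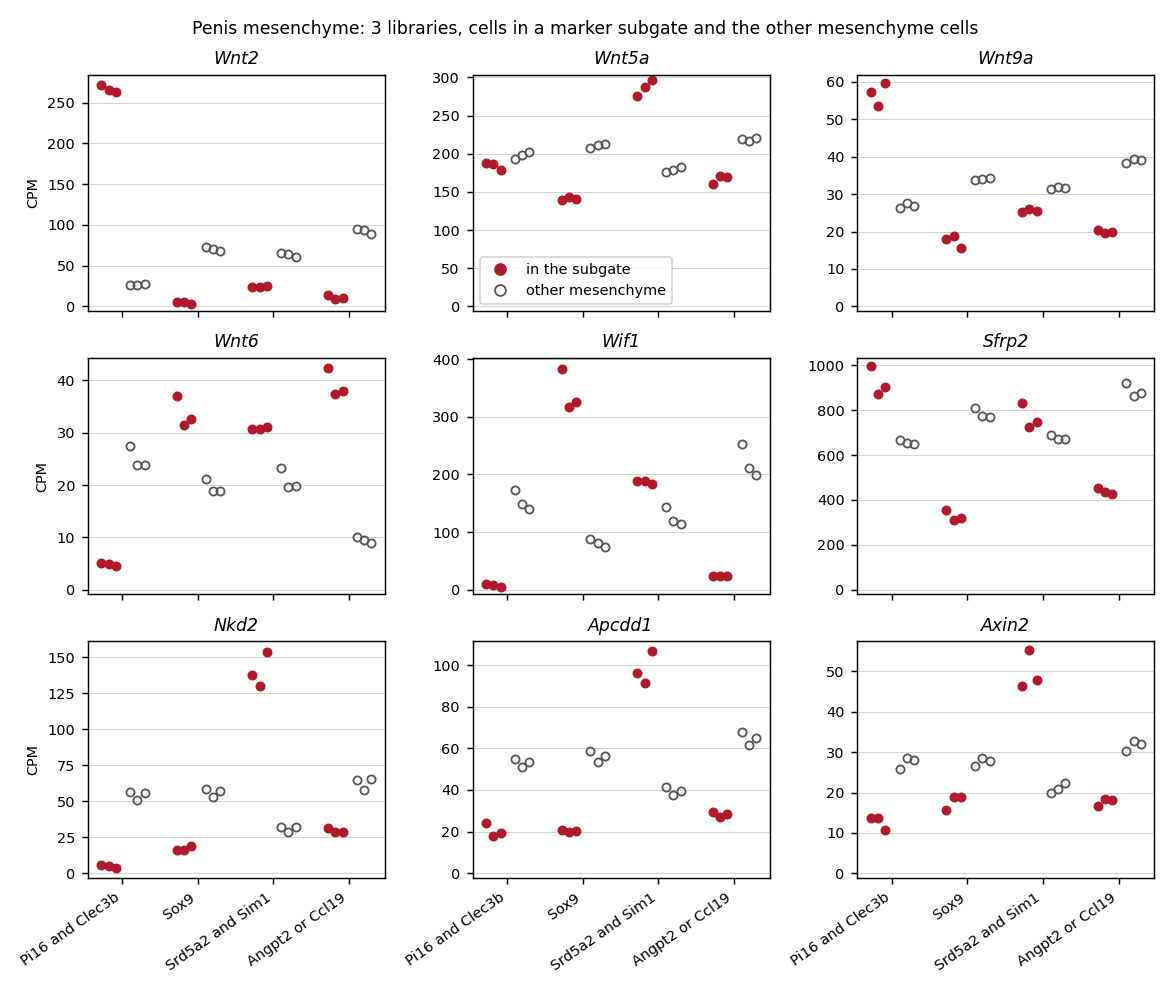
CPM of 9 genes in 4 marker groups of penis mesenchyme (filled points) and in the other mesenchyme cells (open points), 1 point for each of 3 libraries, linear axes. *Wnt2* and *Wnt9a* stand out in the *Pi16* and *Clec3b* group, *Wif1* in the *Sox9* group, *Nkd2*, *Apcdd1* and *Axin2* in the *Srd5a2* and *Sim1* group and *Wnt6* in the *Angpt2* or *Ccl19* group.

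Limb mesenchyme was cut in the same way, with 1 library from each limb. In dermal mesenchyme, cells with *Twist2*, *Dpt* and *Crabp1* (5221 in forelimb and 4528 in hindlimb), 7 of 33 members tested rose and none fell by edgeR (2.9% of all genes were called, 1.77% higher and 1.13% lower; 7740 were at an unadjusted p under 0.05). *Rspo1* was at 29.6 and 15.1 CPM in dermal and 3.25 and 1.34 in other limb mesenchyme (3.34 ± 0.10, edgeR adjusted p = 9.49e-09), *Sfrp5* at 7.09 and 9.30 against 1.13 and 0.867 (3.08 ± 0.18), and *Apcdd1* at 107 and 103 against 33.5 and 32.5 (1.71 ± 0.04). *Nkd1*, *Wnt2*, *Dkk1* and *Wnt4* rose by 1.07 to 1.26. Without the library in the model *Rspo1*, *Wnt2*, *Dkk1* and *Wnt4* had edgeR adjusted p-values of 0.026 to 0.036 and were not called.

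In mesenchyme with *Lhx2* and *Lhx9*, transcription factors of the distal bud, 5 of 32 rose and 4 fell (3.33% of all genes were called, 1.04% higher and 2.29% lower). *Wnt5a* was at 280.1 and 373 CPM against 137 and 122 (1.23 ± 0.12, edgeR adjusted p = 9.95e-06), *Wif1* rose by 1.5, *Nkd2* by 1.07, *Dkk1* by 1.05 and *Axin2* by 1.04, and *Sfrp4*, *Rspo1*, *Wnt2* and *Rspo3* fell by 1.25 to 2.30. Without the library in the model *Wnt5a* alone of these 9 was called. In mesenchyme with *Gdf5*, a joint marker, *Dkk3* was at 82.7 and 68.8 CPM against 24.3 and 25.4 (1.5 ± 0.12, edgeR adjusted p = 4.33e-33), the 1 of 32 to rise, while *Sfrp5*, *Sfrp4* and *Rspo1* fell (2.82% of all genes were called, 1.62% higher and 1.2% lower). The *Dkk3* call was kept by DESeq2 (DESeq2 adjusted p = 5.69e-13) and without the library in the model (edgeR adjusted p = 0.00132). The 3 falls were lost without the library in the model and were not called by DESeq2. In the small *Nppc* and *Tcf15* group of 138 and 108 cells none rose by edgeR and 13 of 33 fell (2.79% of all genes were called, 0.749% higher and 2.04% lower; 3755 were at an unadjusted p under 0.05), among them *Wnt6*, *Rspo1*, *Dkk1* and *Wif1* by 2.97 to 3.59 and *Apcdd1* by 2.31. Of the 13, only *Apcdd1*, *Dkk2* and *Axin2* were called without the library in the model. In this group *Wnt6*, *Dkk1*, *Rspo1* and *Wif1* had 1, 4, 5 and 14 UMIs over both limbs, so the sizes of their falls are uncertain. Between cells with *Hoxa13*, of the hand and foot plate, and cells with *Hoxa11*, of the middle segment, *Sfrp4* was the 1 of 27 members called (2.06% of all genes were, 0.897% higher and 1.16% lower), at 2.56 and 2.36 CPM against 9.56 and 6.89 (-1.75 ± 0.24). It was lost without the library in the model and by DESeq2 (DESeq2 adjusted p = 0.0296).

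Forelimb and hindlimb were 1 library each, so their difference has no replicate check and the intervals below are exact 95% intervals for counting error only. In mesenchyme 21 of 37 ratios had an interval without 1, and 3 of these were at least 2-fold, where 32.8% and 2.03% of all genes with a UMI in both sums did so, whatever their number of UMIs. *Sfrp2* was 3.01 times higher in the hindlimb (2.93 to 3.095). *Wnt6* was 2.17 times higher (1.81 to 2.61) and *Rspo1* 2.10 times higher (1.91 to 2.32) in the forelimb. *Wif1* was 1.65 times higher in the forelimb (1.56 to 1.74), and *Wnt5a* differed little, at 1.10 times (1.07 to 1.13). In the small bone-forming group 8 of 22 ratios were at least 2-fold with an interval without 1 (4.44% of all genes were), among them *Apcdd1* (2.72 times higher in the forelimb, 1.59 to 4.88) and *Wif1* (3.40 times, 1.63 to 7.98), and in mural cells 3 of 20 were, *Rspo3*, *Sfrp4* and *Wnt2* (3.36% of all genes). The numbers were 4 of 33 in cartilage cells (2.13% of all genes), 2 of 30 in tendon cells (2.25%), 2 of 27 in endothelium (1.74%), 1 of 27 in skeletal muscle (1.82%), 1 of 19 in glia (1.78%) and 0 of 28 in epithelium (3.68%).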

How the data were processed

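Single-cell 3' RNA-seq (10X Genomics) was made from 3 libraries of P6 mouse penis, 1 of forelimb and 1 of hindlimb. The authors aligned the reads to mm10 with Cell Ranger 7.0.0 and deposited raw UMI counts per gene and barcode, with no later filter or normalization. Whether introns were counted is not given in the sources used here. The labels name the strain C57BL/6N and the methods C57BL/6J. The list of symbols that sets the members, and all other gene lists, were drawn up with earlier results of these data known.

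Cells were kept with 500 to 6000 (penis), 100 to 9000 (forelimb) or 100 to 9500 (hindlimb) genes, at most 5% (penis) or 10% (limbs) mitochondrial UMIs, and a ratio of log10 genes to log10 UMIs of at least 0.8. The study gives its limits as reads per cell, read here as genes. Kept cells were grouped by the number of a list's markers with a UMI: 4 of 8 for mesenchyme, epithelium, endothelium, glia, macrophages and muscle, 5 of 8 for mural and cartilage cells, 3 of 9 for bone-forming and 4 of 6 for tendon cells. Cells meeting more than 1 list other than mesenchyme were left out, as were epithelium, endothelium, glia, macrophage and muscle cells with 5 or more mesenchyme markers. Mural, cartilage, bone-forming and tendon cells were kept whatever their mesenchyme markers. Doublets were not removed. UMIs were summed per library and type, with at least 20 cells a library.

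Sums were compared with edgeR 4.0.16 (limma 3.58.1, R 4.3.3): TMM scaling, filterByExpr and quasi-likelihood F tests, with p adjusted by Benjamini-Hochberg across the whole table of tested genes. An SE was obtained from each test by dividing the size of its log2 fold change by the root of F. Types, marker groups and interactions within libraries had the library as a block, since both sums come from the same cells' library. Calls needed an adjusted p below 0.01 and a log2 fold change beyond 1. In simulated penis and limb mesenchyme sums (20319 genes), edgeR recovered 91 of 100 genes changed by 1.5 and 88 of 100 changed by 2 on the log2 scale. In penis and limb glia sums (10716 genes) it recovered 77 and 87 (DESeq2 55 and 79), and for glia against mesenchyme in penis (13562 genes) 75 and 91. False calls among unchanged genes by edgeR numbered 4, 0 and 2 in these simulations. Before those changes a simulated gene had the same share of UMIs in every sum, forelimb and hindlimb alike. Recovery where many genes differ, or where the limbs differ, was therefore not tested. Shares of cells were thinned to 2000 UMIs (pandas 2.3.3 and numpy 2.4.6 in Python 3.11.15). Forelimb and hindlimb ratios have exact 95% intervals (scipy 1.17.1). The named genes are the members called in a comparison or prominent in a type, beside a list of 54 other pathway genes. Alternatives were DESeq2 1.42.0, no TMM, no filter, 1 more marker in every gate, all barcodes, no block, a limit of 0.05 without fold, each library left out and, added after seeing the data, cells above the 95th percentile of UMIs left out. Promoter windows are from RefSeq (GRCm38.p6), and gene positions from an mm10 annotation.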

Additional observations from a re-analysis of the deposited data

Results flagged for a closer look

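All 27 results below are differences, penis minus limb, in a cell type's log2 distance from mesenchyme, taken from the interaction test (edgeR, library as block). They were selected because that difference passed the same limits as the other calls. Sides that lay under the filter on low counts were not counted for this test. No group held 4 or more samples, so no library was tested as standing apart within its group.

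In endothelium, *Apcdd1* differed by 3.44 (edgeR adjusted p = 2.81e-13), *Axin2* by 2.71, *Wnt5b* by 2.61 and *Wnt4* by 1.48, all further up in penis, while *Sfrp1* (-2.09) and *Sfrp2* (-2.03) were further down. Without the hindlimb *Sfrp1* (-1.20), *Sfrp2* (-1.66) and *Wnt4* (1.08) were not called, and *Sfrp2* was also lost without the forelimb (-1.99), penis library 2 (-2.23) or penis library 3 (-1.87). *Apcdd1*, *Axin2* and *Wnt5b* kept their calls under every alternative run. *Dkk1* differed by 8.73 (edgeR adjusted p = 0.00816), a fitted value that rests on 1 UMI in each penis endothelium sum and 0 in each limb sum, gives no size and was lost without any single library.

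In epithelium, *Wnt6* (-3.53), *Wnt16* (-4.06), *Sfrp2* (-3.30), *Wnt3a* (-2.72), *Wnt10a* (-1.43), *Wnt10b* (-1.36) and *Axin2* (-1.17) were lower in penis relative to mesenchyme, and *Wnt4* was higher (1.02). *Wnt6*, *Wnt16* and *Sfrp2* kept their calls under every alternative run. *Wnt10b* was lost without any single library (-1.42 to -1.26), *Wnt10a* without penis library 1 or 2 or either limb (-1.62 to -1.23), *Wnt3a* without penis library 1 or 3 or either limb (-3.14 to -2.17), *Axin2* without penis library 2 or either limb (-1.28 to -0.93) and *Wnt4* without the hindlimb (0.72). *Wnt10a* had a higher level in penis than in limb in both epithelium and mesenchyme, with log2 fold changes of 1.61 and 3.08. Within each tissue *Wnt10a* and *Wnt10b* lay under the filter on low counts in mesenchyme, as did *Wnt3a* in limb. Their interactions are therefore no independent sign of a difference.

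In glia, *Sfrp5* (5.18) and *Nkd1* (3.14) were higher in penis relative to mesenchyme, and *Dkk2* (-4.78), *Wif1* (-3.70) and *Wnt5b* (-2.71) lower. *Wif1* was lost without penis library 1 or either limb (-3.95 to -3.19) and *Wnt5b* without the hindlimb (-2.40); the other 3 kept their calls under every alternative run. The level of *Sfrp5* in glia itself was not called between the tissues, and its mesenchymal level in penis rests on 11 UMIs, so the size of 5.18 is uncertain.

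In mural cells, *Dkk2* (1.44), *Apcdd1* (1.37) and *Nkd1* (1.34) were higher in penis relative to mesenchyme, and *Sfrp1* (-2.03), *Sfrp2* (-2.24), *Wnt11* (-2.46) and *Wnt2* (-3.18) lower. Each of these 7 was lost under at least 3 alternatives. Without the forelimb *Nkd1* alone was still called, with *Wnt2* at -1.95, and without the cells above the 95th percentile of UMIs *Wnt2* was at 0.51, *Sfrp2* at -0.76, *Wnt11* at -1.55 and *Dkk2*, still called, at 2.75. With 1 more marker *Dkk2* was at 2.48 and *Apcdd1* at 2.20, both called, and *Wnt2* at -2.56, not called. Without penis library 1 *Wnt2* was at -3.89. Without the hindlimb *Apcdd1* (1.43), *Dkk2* (1.43), *Nkd1* (1.07) and *Wnt11* (-2.52) were not called, and without penis library 1 *Apcdd1* (0.98), *Nkd1* (1.17) and *Sfrp1* (-1.97) were not. *Nkd1* was also lost without penis library 2 (1.48) or 3 (1.35). Mesenchyme markers summed to 1227 to 1435 CPM in penis and 1694 and 1606 CPM in limb mural cells, and their part in these differences was not tested.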

How the results depend on the processing

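Between tissues, members called at an adjusted p under 0.05 without a fold limit numbered 28 in mesenchyme (16 with it), 6 in mural cells (2) and 6 in bone-forming cells (3), and 97 (48) and 82 (34) over the penis and limb marker groups. DESeq2 called 1 member in mural cells. Without a filter on low counts 5 were called in mural and 7 in bone-forming cells, and with all barcodes 6 in bone-forming cells. With each library left out in turn the counts ran from 13 to 17 in mesenchyme, 1 to 2 in mural cells, 1 to 4 in bone-forming cells and 14 to 23 over the interactions (27 with all libraries), where 14 were left without the hindlimb and 15 without the forelimb. The cause was not tested. No paired analysis was possible because, between penis and limb, the libraries share no animal. Within libraries, leaving out the replicate block gave 134 calls for 132 over the penis types, 133 for 146 over the limb types, 21 for 27 over the interactions, 48 for 48 over the penis marker groups and 8 for 34 over the limb marker groups. The interaction of *Wnt2* in mural cells turned from -3.18 to 0.51 without the cells above the 95th percentile of UMIs. Of 450 called member values, 327 were never lost, though limb types and limb marker groups had no fit with a library left out. Alternatives lost a call 322 times, and that of *Wnt2* in mural cells was the 1 that reversed.

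Over all genes, the limit of 0.05 without fold gave 15642 calls for 5327 in whole libraries, 14291 for 5137 in mesenchyme, 3143 for 1437 in epithelium, 5777 for 1796 in endothelium, 4049 for 1747 in glia, 4330 for 1659 in cartilage, 2727 for 1126 in mural and 972 for 427 in bone-forming cells. Mural cells had 567 with 1 more marker, 660 without the top cells and 744 without the forelimb. Bone-forming cells had 832 without a filter, 669 with all barcodes, 250 without penis library 3 and 283 without the forelimb. The interaction in mural cells had 296, 265 and 266 for 500 with 1 more marker, without the top cells and without the forelimb. Limb mural cells against mesenchyme had 737, 863 and 775 for 480 without a filter, with 1 more marker and without the top cells, and limb bone-forming cells 564 and 447 for 284 without a filter and with all barcodes. In the limb marker groups, DESeq2 and no block gave 302 and 174 for 545 (*Gdf5*), 310 and 56 for 562 (dermal), 272 and 156 for 533 (*Nppc*) and 168 and 89 for 321 (*Hoxa13*), and no block 129 for 639 (*Lhx2*).

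Without TMM, the higher share of calls moved from 40.8 to 28.1% in penis epithelium against mesenchyme, 46.7 to 32.6% in penis and 41.2 to 31.1% in limb macrophages, 39.1 to 27.5% in penis tendon cells, 28.9 to 16.1% in limb muscle, 55.6 to 71.6% in limb bone-forming cells, 44.1 to 32.9% in the *Pi16* group, 57.4 to 67.5% in the *Gdf5* group and 31.3 to 42.4% in the *Lhx2* group, and the all-gene median moved by over 0.1, for instance from 0.04 to -0.25 in penis epithelium. Leaving out doublets called by Scrublet was not run on the 5 libraries, since its automatic threshold marked no cell in a trial on the hindlimb alone. Bone-forming and cartilage cells gave no value with 1 more marker, having under 20 cells in a library. Neither the limb types against mesenchyme nor the limb marker groups could be fitted with a library left out. Levels rested on few UMIs in the small types: 12 of 175 levels of at least 10 CPM moved over 1.5 times with 1 more marker.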
